A study of Homo sapiens with 15 samples.

Results

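Accessible chromatin around the receptors and ligands of the epidermal growth factor (EGF) family was described in HPAF-II cells: the receptors EGFR, ERBB2, ERBB3 and ERBB4 and the ligands AREG, EREG, TGFA, HBEGF, BTC and EPGN. The peaks of 15 ATAC-seq libraries were merged wherever they shared at least 1 bp, and every resulting region inside 1 of these 10 genes or within 50 kb of either of its ends was taken. This gave 227 of the 222814 regions in all, 9 of which lay within 50 kb of more than 1 of the genes. HPAF-II is an established human pancreatic adenocarcinoma cell line, so the libraries describe 1 line, and ATAC-seq marks open chromatin by the places where a transposase can insert. The libraries came from cells treated with 1 µM Lgk974 for 24 h (4 libraries), DMSO for 24 h (4 libraries), Lgk974 for 48 h (3 libraries) and DMSO for 48 h (4 libraries). Lgk974 inhibits Porcupine, the enzyme that attaches the lipid that WNT proteins need for secretion, and DMSO is the solvent control. The study asked how blocking WNT signalling alters chromatin structure.

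EGF family ligands are made as membrane-anchored precursors that metalloproteases release, and they activate receptor tyrosine kinases that work in pairs. EGFR and ERBB4 bind ligands and carry an active kinase, ERBB2 has no known ligand and is the favoured partner of the others, and ERBB3 binds neuregulins but has a weak kinase. In pancreatic ductal epithelium these receptors feed the RAS and MAP kinase pathway, which in turn induces several of the ligands.

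The promoters printed here show the contrasts in opening that the values below turn on: AREG and EREG, which had a peak in every library, EPGN on the same arm of chromosome 4, which had a peak in none, the first and second listed starts of EGFR, and ERBB2. Each runs 5′ to 3′ on the gene's strand from 250 bases before to 50 bases after a start, from RefSeq on GRCh38.p14. They lie at chr4:74444886-74445185 (AREG), chr4:74364895-74365194 (EREG), chr4:74308220-74308519 (EPGN), chr7:55018767-55019066 (EGFR start 1), chr7:55109589-55109888 (EGFR start 2) and chr17:39687844-39688143 (ERBB2), all on the plus strand. Capitals mark exact matches to 6 motifs: AP-1 (TGANTCA), the cyclic AMP response element or CRE (TGACGTCA), TCF/LEF (CTTTGAT), ETS (CCGGAAGT) and the GC box (GGGCGG), each on both strands, and the TATA box (TATAAA) on the gene's strand.
AREG: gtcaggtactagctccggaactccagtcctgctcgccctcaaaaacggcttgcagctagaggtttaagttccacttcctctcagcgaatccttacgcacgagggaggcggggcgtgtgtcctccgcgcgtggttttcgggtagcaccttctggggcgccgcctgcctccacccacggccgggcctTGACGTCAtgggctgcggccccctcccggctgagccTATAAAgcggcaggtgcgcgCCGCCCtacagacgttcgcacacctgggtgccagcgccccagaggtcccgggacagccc
EREG: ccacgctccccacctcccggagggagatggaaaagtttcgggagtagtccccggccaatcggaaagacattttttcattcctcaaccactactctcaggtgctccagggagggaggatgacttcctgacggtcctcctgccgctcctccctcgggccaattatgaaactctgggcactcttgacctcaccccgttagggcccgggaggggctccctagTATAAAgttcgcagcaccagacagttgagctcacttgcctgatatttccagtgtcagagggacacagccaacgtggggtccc
EPGN: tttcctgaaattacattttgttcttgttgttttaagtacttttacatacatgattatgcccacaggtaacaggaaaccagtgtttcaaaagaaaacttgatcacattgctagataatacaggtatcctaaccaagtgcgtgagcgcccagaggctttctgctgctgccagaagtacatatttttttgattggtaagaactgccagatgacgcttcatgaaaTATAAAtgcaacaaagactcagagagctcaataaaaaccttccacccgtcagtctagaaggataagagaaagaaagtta
EGFR start 1: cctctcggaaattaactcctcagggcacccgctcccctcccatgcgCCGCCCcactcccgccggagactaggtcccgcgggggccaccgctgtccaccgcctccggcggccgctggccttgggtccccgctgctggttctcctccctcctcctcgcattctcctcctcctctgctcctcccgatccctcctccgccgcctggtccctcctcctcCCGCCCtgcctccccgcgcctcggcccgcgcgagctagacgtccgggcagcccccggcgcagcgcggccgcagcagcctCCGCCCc
EGFR start 2: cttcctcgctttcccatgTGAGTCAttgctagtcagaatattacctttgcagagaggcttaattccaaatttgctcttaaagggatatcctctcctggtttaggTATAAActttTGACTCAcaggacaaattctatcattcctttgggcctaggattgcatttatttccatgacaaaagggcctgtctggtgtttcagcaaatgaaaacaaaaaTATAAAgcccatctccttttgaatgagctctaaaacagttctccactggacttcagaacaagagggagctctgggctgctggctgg
ERBB2: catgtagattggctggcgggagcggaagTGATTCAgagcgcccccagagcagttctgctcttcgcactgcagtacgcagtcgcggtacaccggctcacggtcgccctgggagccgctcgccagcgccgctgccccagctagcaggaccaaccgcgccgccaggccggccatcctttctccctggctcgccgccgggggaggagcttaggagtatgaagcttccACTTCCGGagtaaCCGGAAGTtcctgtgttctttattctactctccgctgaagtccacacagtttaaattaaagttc

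AREG, the ligand amphiregulin, had a CRE beginning at -65, in bases from its start, and a TATA box beginning at -29. EREG (epiregulin) and EPGN (epigen) had a TATA box beginning at -32 and -29. The second EGFR start had AP-1 matches at -232 and -136, and the ERBB2 promoter had a pair of ETS matches in opposite directions, beginning at -27 and -14. Of all 22131 coding-gene promoters of this length, 6.15% held the AP-1 letters, 2.26% the CRE, 1.99% the TCF/LEF letters, 5.34% the ETS letters, 56.3% a GC box and 6.47% a TATA box. Among the 11 listed promoters of the family, 2 held the AP-1 letters, 1 the CRE, 0 TCF/LEF, 1 ETS, 6 a GC box and 4 a TATA box. The AP-1 letters allow any middle base: the matches were TGAGTCA and TGACTCA at the second EGFR start and TGATTCA at ERBB2. A match is a run of letters and not a measured binding site.

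The starts of most family genes were open in every library with both treatments. A promoter or region was counted as called, or detected, in a library where a deposited peak overlapped it. Promoters with a peak in 7 of 7 Lgk974 and 8 of 8 DMSO libraries were those of EGFR (first start), ERBB2, AREG, EREG, TGFA, HBEGF and BTC. The EPGN promoter had no peak with either treatment (0 of 7 Lgk974 and 0 of 8 DMSO libraries), and the ERBB4 promoter in 0 of 7 Lgk974 and 2 of 8 DMSO libraries (24 h replicate 3 and 48 h replicate 4). Across all coding promoters, 45% were called in all 15 libraries and 31.2% in none. At ERBB3, a region of 2299 bp over the end with the lower coordinate (chr12:56078917-56081215) was called in all 15. With 1 kb on either side of each start, ERBB4 was detected in 2 of 7 Lgk974 and 2 of 8 DMSO libraries (two-sided exact permutation p = 0.939, labels permuted within time). Of 5057 gene starts that could be tested in the same way, 4.23% had an unadjusted p under 0.05.

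The open promoters of the family were not all rich in CpG. The ratio of observed to expected CpG was 0.902 at HBEGF, 0.893 at the first EGFR start, 0.873 at ERBB2 and 0.824 at AREG, but 0.486 at EREG and 0.416 at BTC, which encodes betacellulin. Promoters with a ratio under 0.6 were called in all 15 libraries in 14.4% of cases and in none in 63.9%, against 63.6% and 11.4% of those at or above it. The EPGN promoter, with a ratio of 0.376 and 37.7% GC, was on the low side of that split, while ERBB4, with 0.728, was on the high side.

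The family promoters also differed in the strength of their peaks. Each peak was given its percentile rank by deposited −log10 q within its own library's list, so that 100 is the strongest peak of that library. The ERBB2 promoter peak had a median rank of 90.7 (range 76.4 to 95.8), and its region also covered the start of the neighbouring gene PGAP3. The median rank was 84.2 at TGFA, 79.4 at AREG, 75.9 at BTC, 70.9 at the first EGFR start, 66.3 at EREG and 60.5 at HBEGF. The 2 ERBB4 peaks ranked at 73.7 and 21.7. The AREG summits lay between -84 and 40 bases from the start, so every summit fell within the AREG sequence printed above. The second EGFR start, 55109839, was detected in 3 of 7 Lgk974 and 5 of 8 DMSO libraries with a median rank of 36.9, and its summits lay between -337 and -214 bases from the start, so that 4 of the 8 fell before the first printed base and the other 4 within the sequence.

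**Figure D1:**
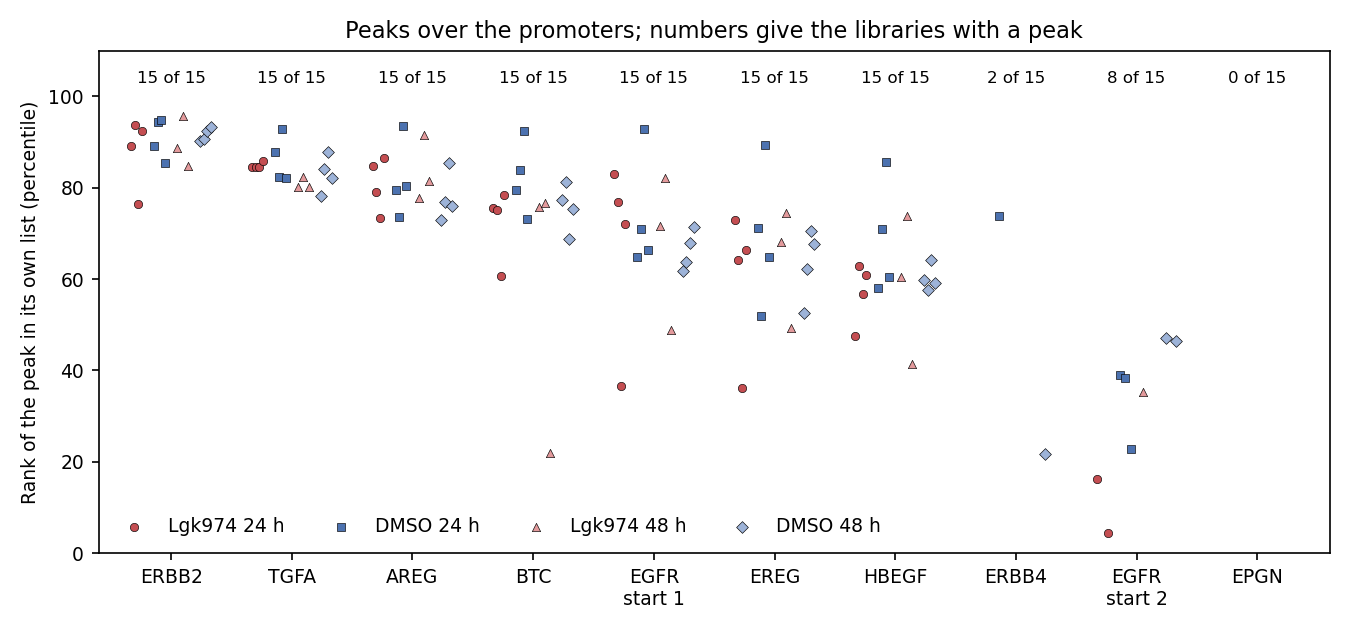
Percentile rank of each promoter peak within its own library's list (vertical axis) for 10 promoters, with 1 point per library that had a peak, Lgk974 left of DMSO at each time, and the number of libraries with a peak above each column. ERBB2 peaks stand highest with a median of 90.7, EPGN has no point, and the second EGFR start has 8.

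Over the whole windows, 53 of the 227 family regions (23.3%) were constitutive, meaning called in all 15 libraries, and 59 (26%) had a peak in a single library. The same shares over all regions were 15.9% and 39.5%. Of the 87949 single-library regions in all, 44556 were called in DMSO 24 h replicate 3. With every list cut to its 53583 strongest peaks, 32.8% of family regions were called in all 15 libraries, against 30.3% of all regions. Family regions had a median width of 464 bp, against 395 bp for all regions. Within the family, between 67 and 146 regions were called in the 7 Lgk974 libraries (113 ± 29.2, SD) and between 105 and 139 in the 8 DMSO libraries (123 ± 13.9, SD). The 2 lowest counts, 67 and 78, came from Lgk974 24 h replicate 3 and Lgk974 48 h replicate 3, which also had the shortest lists (53583 and 57649 peaks). The treatment difference in this count was -9.12 regions, within the spread between libraries (exact permutation p = 0.467).

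Those libraries stood apart in the whole lists as well. The lists held 53583 to 122732 peaks with Lgk974 and 76679 to 127755 with DMSO, and the longest, DMSO 24 h replicate 3, had 36.6% of its regions in no other library. The mean Jaccard index with the other libraries, the shared share of all regions called in either of a pair, was 0.513 and 0.478 for the 2 short Lgk974 lists and 0.376 for DMSO 24 h replicate 3, against 0.583 to 0.656 for the other 12. List lengths and outlying libraries moved with the counts given here, and their part in them was not tested beyond the values given with those libraries left out or the lists made equally long. Of 10 pancreatic epithelial marker genes, 9 had a called start in all 15 libraries, with 9 to 10 called per Lgk974 library and 9 per DMSO library. Starts called in all 15 numbered 2 of 8 for fibroblast markers, 4 of 8 for immune, 0 of 6 for endothelial and 1 of 4 for neural markers, and PTPRC was called in none. Per library, 2 to 3 fibroblast, 4 to 5 immune, 0 to 2 endothelial and 1 to 3 neural starts were called with Lgk974, against 2 to 3, 4 to 5, 0 to 1 and 2 to 3 with DMSO.

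**Figure D2:**
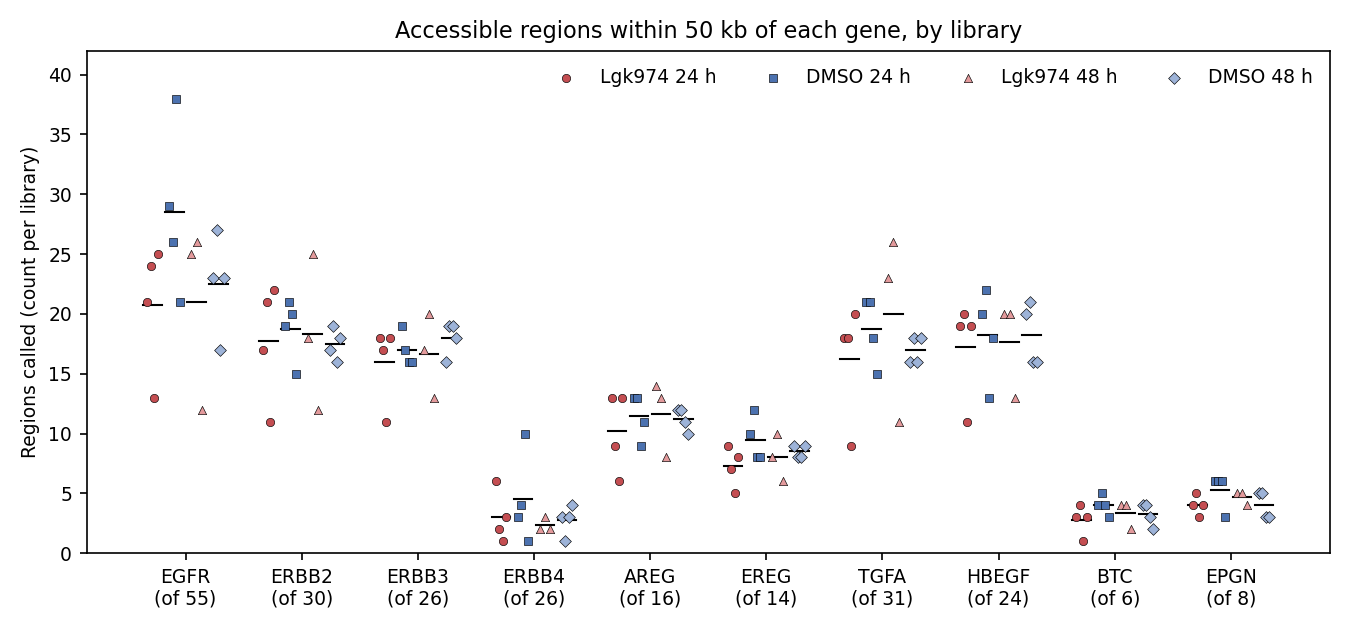
Number of regions within 50 kb of each gene that were called in each library (vertical axis), with 1 point per library, the group mean as a bar, Lgk974 left of DMSO at each time, and the number of regions per gene in brackets. Groups overlap for every gene, and the highest EGFR count, 38, belongs to DMSO 24 h replicate 3.

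Among the receptors, EGFR (chr7:55019017-55211628) and ERBB2 (chr17:39688094-39728658) had the most constitutive regions, with 10 each. The median of 19970 coding-gene windows held 3, and 93.6% of windows held fewer than these receptors. For EGFR the window is long, and per 100 kb it exceeded 65.8% of coding windows, against 92.2% for ERBB2. The 10 EGFR regions were spread over the locus: 3 lay upstream, centred at -33.3, -31.0 and -22.9 kb from the start, 1 covered the start, 5 lay 46.5, 55.2, 58.9, 114.3 and 167.3 kb into the gene, and 1 lay 42.8 kb beyond it. The highest ranks were at 114.3 kb (median 98.3), 55.2 kb (97.3) and -22.9 kb (96.9), all above the promoter's own 70.9. At ERBB2, constitutive regions covered the starts of the neighbours PGAP3 and MIEN1 as well, and 3 lay inside the gene, 12.1, 18 and 19 kb from its start. Those at chr17:39737400-39738847 and chr17:39739095-39740130 lay inside another neighbour, GRB7. Of the 10 constitutive ERBB2 regions, 4 overlapped the gene itself.

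EGFR counts spread widely within groups. With Lgk974 at 24 h, 21, 24, 13 and 25 of its 55 regions were called, and with DMSO at 24 h 29, 26, 38 and 21. With Lgk974 at 48 h, 25, 26 and 12 were called, and with DMSO at 48 h 23, 27, 17 and 23. The ranges overlapped at both times.

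ERBB3 (chr12:56080108-56103505), the neuregulin receptor, had 9 constitutive regions among 26, but 5 of these lay over the starts of other genes, among them RPS26, PA2G4, ZC3H10 and ESYT1. The strongest, with a median rank of 99.6, covered the start of PA2G4 0.3 kb beyond ERBB3. Within the gene itself 2 were constitutive, the region described above over the end with the lower coordinate and 1 at chr12:56087146-56087666.

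ERBB4 (chr2:211375717-212538802) was the opposite case. It is the longest gene of the family, yet none of its 26 regions was called in all 15 libraries and 20 were called in a single one. Between 1 and 6 of its regions were called in Lgk974 libraries and between 1 and 10 in DMSO libraries. The highest DMSO count, 10, came from 24 h replicate 3. A single region deep inside the gene, 927.4 kb from the start (chr2:211611028-211611692), was detected in 6 of 7 Lgk974 and 7 of 8 DMSO libraries. Upstream, a region 28.8 kb away was detected in 3 of 4 Lgk974 and 1 of 4 DMSO libraries at 24 h, and in 1 of 3 Lgk974 and 1 of 4 DMSO libraries at 48 h (exact permutation p = 0.324).

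The ligands on chromosome 4 lie in the order EPGN (chr4:74308470-74316789), EREG (chr4:74365145-74388749), AREG (chr4:74445136-74455005) and BTC (chr4:74744759-74794523). The EPGN gene, though without a peak at its start, had a constitutive region 3.6 kb beyond it (chr4:74320436-74321246) with a median rank of 94.3, above the ranks of the AREG and EREG promoters. Between EREG and AREG, regions at chr4:74394633-74395287 and chr4:74423066-74423641 were called in all 15 libraries with median ranks of 81.8 and 83.5, and both fell within 50 kb of each gene. Inside EREG a further constitutive region lay 9.9 kb from the start (rank 90.3), and inside AREG 1 lay 6.2 kb from the start (rank 65.7). BTC had 6 regions, of which only its promoter was called in every library. A region 25.4 kb into the gene was missing from 1 library alone, Lgk974 24 h replicate 3, which had the shortest list.

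TGFA (chr2:70447284-70553826), which encodes transforming growth factor alpha, had 7 constitutive regions among 31, and HBEGF (chr5:140332843-140346603), the heparin-binding ligand, had 7 among 24. The strongest TGFA region lay 29.1 kb into the gene with a median rank of 97.1, and another lay upstream at -16.2 kb with a rank of 88.2. At HBEGF the strongest lay upstream at -11.2 kb with a rank of 94.6, against 60.5 at the promoter. Its nearest coding start was that of the neighbour SLC4A9, 1886 bp away. Among the constitutive HBEGF regions, 1 covered the start of the neighbour PFDN1, and the region at chr5:140363083-140363700 lay inside SLC4A9.

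**Figure D3:**
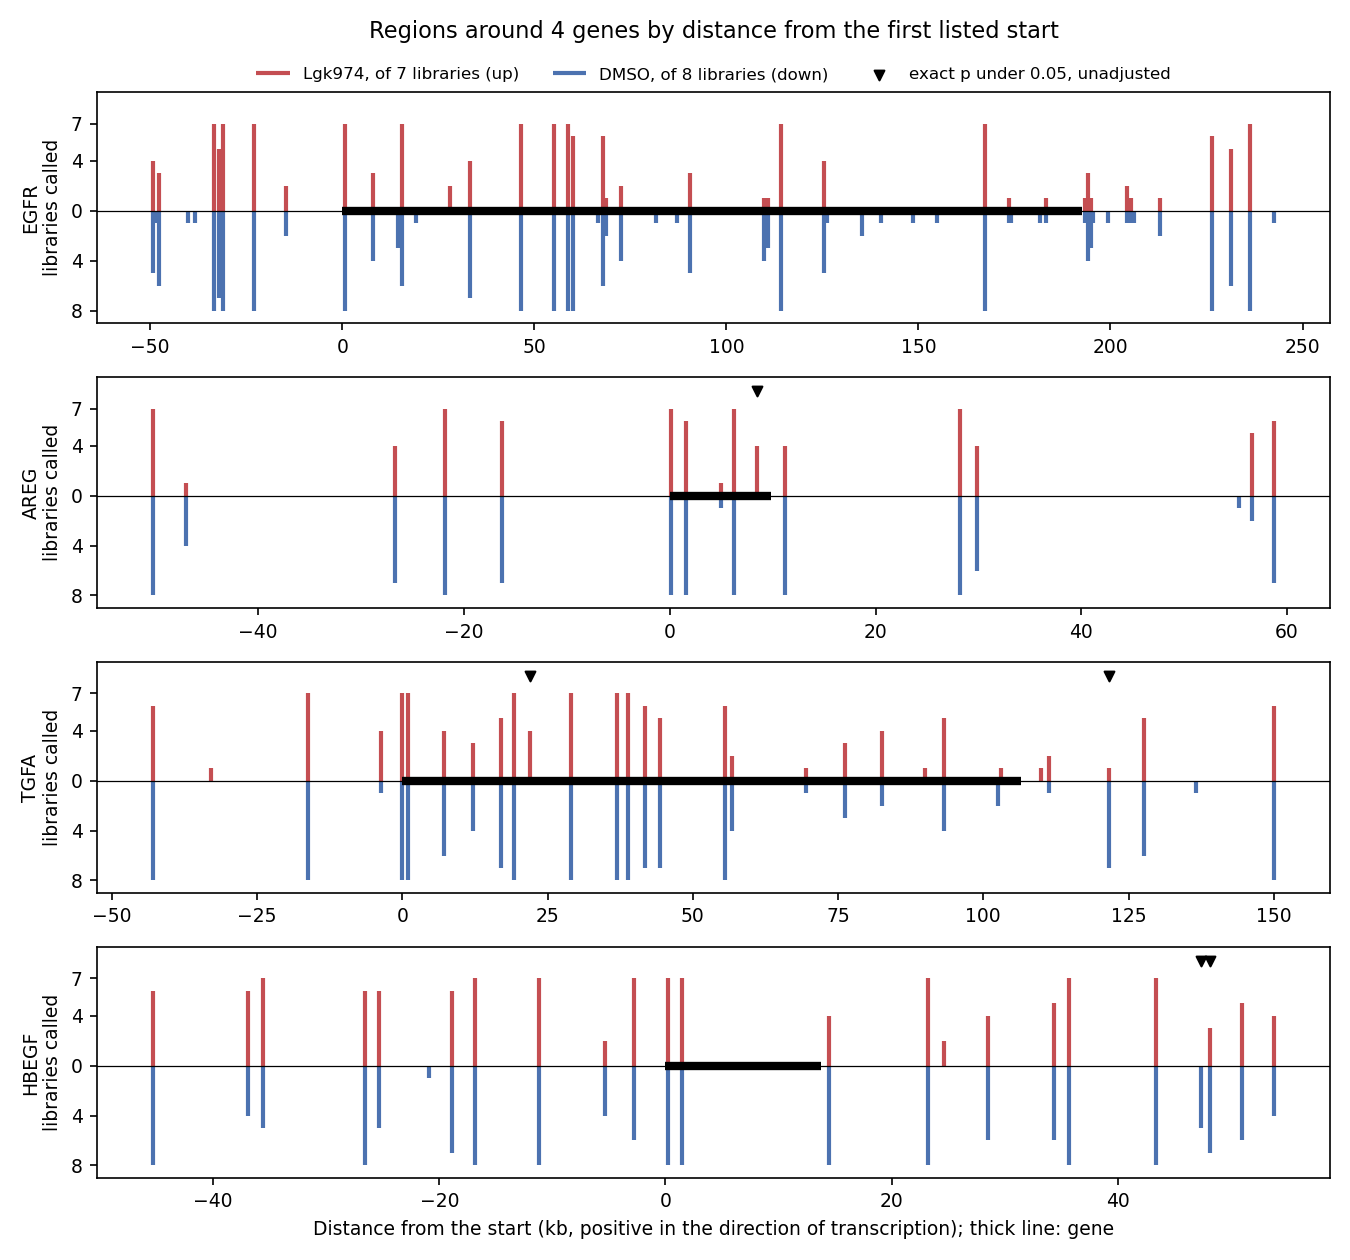
Regions around EGFR, AREG, TGFA and HBEGF by distance of the region's centre from the first listed start in kb (horizontal axis), with the number of Lgk974 libraries called drawn upwards, of 7, and of DMSO libraries drawn downwards, of 8. Full-height lines on both sides are constitutive regions, and triangles mark the 5 regions with an unadjusted exact p under 0.05.

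The treatment comparison used the 73 family regions called in 3 to 12 libraries. Over both times, 2 of these were higher with Lgk974, meaning called in a larger share of libraries, and 3 were lower, at an unadjusted p under 0.05 in a two-sided exact permutation test with labels permuted within time. Over all 60356 regions tested, 2.96% were higher and 3.08% lower, 6.03% in either direction, against 6.85% of the family regions, so the family's share was close to the background. After Benjamini-Hochberg adjustment over all regions 0 passed 0.05, in the family or elsewhere, and the smallest adjusted p was 0.543 in the family and 0.418 over all regions. The smallest p this design can give is 0.000408. The median difference in the share of libraries called was -0.08 in the family and -0.04 over all regions tested, as Lgk974 minus DMSO.

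The region with the smallest p lay beyond the 3′ side of TGFA, at chr2:70431958-70432497, 14.8 kb from the gene. At 24 h 0 of 4 Lgk974 libraries had a peak there, against 3 of 4 with DMSO. At 48 h 1 of 3 Lgk974 libraries had one, against 4 of 4 with DMSO. Its peak ranked at 10.1 in the sole Lgk974 library that had it (48 h replicate 2). In DMSO libraries it ranked at 81.0, 66.4 and 35.6 at 24 h (replicates 1, 2 and 4) and at 55.4, 61.8, 45.4 and 58.0 at 48 h. Ranks hold within a list only, and the sole Lgk974 peak was among the weaker ones of its list. The difference in the share of libraries called was -0.71 (exact permutation p = 0.0102, adjusted p = 0.543), and 37 regions of the whole set, this one included, were called in exactly the same libraries. An unadjusted exact permutation p under 0.05 was kept in all 22 alternatives that gave a value for it (0.00204 to 0.0312). These alternatives reuse the libraries from which the region was picked by its p, so they are not independent of the main result.

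Inside TGFA, 22 kb from the start, a region at chr2:70531626-70532090 went the other way. It was detected in 1 of 4 Lgk974 and 0 of 4 DMSO libraries at 24 h, and in 3 of 3 Lgk974 and 0 of 4 DMSO libraries at 48 h (exact permutation p = 0.0143). Its Lgk974 peaks ranked at 11.5 at 24 h and at 35.0, 44.5 and 6.16 at 48 h. With peaks of a −log10 q of at least 5 alone, the exact permutation p was 0.0714. Leaving out any 1 of the 4 DMSO 48 h libraries gave an exact permutation p of 0.05.

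Inside AREG, 8.5 kb from the start, a region at chr4:74453382-74453792 was detected in 2 of 4 Lgk974 and 0 of 4 DMSO libraries at 24 h, and in 2 of 3 Lgk974 and 0 of 4 DMSO libraries at 48 h (exact permutation p = 0.0306). Its 4 peaks were weak, with ranks of 6.95, 13.8, 19.8 and 24.7, and the exact permutation p was 0.0714 with peaks of a −log10 q of at least 5 alone. Leaving out any DMSO library, or any of the 4 Lgk974 libraries that had the peak, took its exact permutation p to between 0.0612 and 0.0857.

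The other 2 regions lay beyond the 3′ side of HBEGF, both inside the neighbouring gene PFDN1. The one at chr5:140298996-140299502, 33.3 kb from HBEGF, was detected in 0 of 4 Lgk974 and 1 of 4 DMSO libraries at 24 h, and in 0 of 3 Lgk974 and 4 of 4 DMSO libraries at 48 h (exact permutation p = 0.0143). Leaving out any 1 of the 4 DMSO 48 h libraries gave an exact permutation p of 0.05. The one at chr5:140298103-140298695, 34.1 kb away, was detected in 3 of 4 Lgk974 and 3 of 4 DMSO libraries at 24 h, and in 0 of 3 Lgk974 and 4 of 4 DMSO libraries at 48 h (exact permutation p = 0.0469). Its exact permutation p was above 0.05 on leaving out any single library other than DMSO 24 h replicate 3. With peaks of a −log10 q of at least 5 alone, the exact permutation p was 0.143 for the first of these regions and 0.0616 for the second. The second also had an exact permutation p of 0.206 with peaks that covered at least 50% of it and 0.0667 without the 3 libraries that stood apart.

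**Figure D4:**
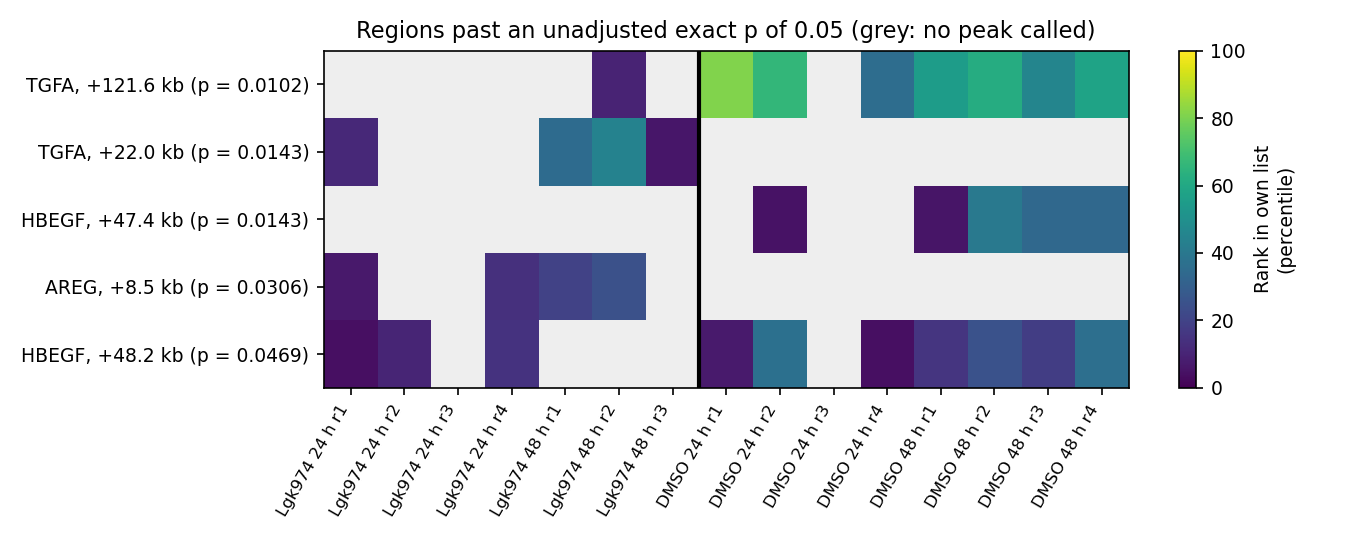
The 5 family regions with an unadjusted exact p under 0.05 (rows, named by gene and distance of the centre from the start) in each library (columns, Lgk974 left of the black line and DMSO right of it), with colour for the percentile rank of the peak in its own list and grey for no peak. The TGFA region at 121.6 kb has 1 peak among Lgk974 libraries and 7 among DMSO libraries.

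Within a single time, regions that separated the treatments were fewer at 24 h than at 48 h, in the family and over all regions tested. At 24 h, 0 of 34 tested family regions had an unadjusted exact p under 0.05, against 0.937% of all regions tested (0.251% higher and 0.686% lower with Lgk974). At 48 h, 1 of 35 separated the groups upwards, with a peak in all 3 Lgk974 libraries and none with DMSO, the region inside TGFA, against 1.77% of all regions tested. In the opposite direction 2 of 35 did so, both near HBEGF and inside PFDN1, against 2.91%. These 2 are neighbouring regions with the same counts at 48 h, so they may not be independent. In either direction 8.57% of the tested family regions separated the treatments, against 4.68% of all regions tested. The smallest p possible at either time is 0.0286, and these p-values were not adjusted.

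Because list length differed between libraries, the lists were also cut to their 53583 strongest peaks each. This left 116 family regions, 38 of them tested, of which 4 were higher and 2 lower with Lgk974 at an unadjusted exact p under 0.05. The background also grew, to 7.62% higher and 6.83% lower (14.4% in either direction) among all regions tested. The TGFA region at 121.6 kb then had a peak in 0 of 7 Lgk974 and 7 of 8 DMSO libraries (exact permutation p = 0.00204, adjusted p = 0.0839). The other 4 regions described above had no peak left in any library, so they gave no value with equally long lists. A second TGFA region, inside the gene at chr2:70536613-70537138, was detected in 0 of 7 Lgk974 and 6 of 8 DMSO libraries, although in the full lists it was called in 5 of 7 and 7 of 8. A region 2573 bp upstream of HBEGF (chr5:140349176-140349669) was detected in 6 of 7 Lgk974 and 1 of 8 DMSO libraries, and in the full lists in 7 of 7 and 6 of 8. The other 3 regions were called more often with Lgk974: EGFR at chr7:55086455-55087251 (4 of 7 Lgk974 and 0 of 8 DMSO libraries), ERBB3 at chr12:56081814-56082354 (6 of 7 and 2 of 8) and HBEGF at chr5:140383115-140383800 (4 of 7 and 0 of 8). In the full lists these were detected in 6 of 7 Lgk974 and 6 of 8 DMSO libraries at EGFR, 6 of 7 and 7 of 8 at ERBB3, and 6 of 7 and 4 of 8 at HBEGF.

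Whole windows were compared by a calling excess, the share of a gene's regions called in a library minus the share of equally frequent regions called in that library genome-wide, in percentage points. Of the 10 family windows, EGFR alone had an unadjusted exact p under 0.05, in the lower direction, so that 0 of 10 were higher with Lgk974, against 6.77% of all 47826 gene windows tested, and 1 of 10 was lower, against 5.21%. The EGFR excess was -4.74, -1.32, -0.01 and 0.775 with Lgk974 at 24 h, and 3.75, -1.34, 15.2 and 4.89 with DMSO at 24 h. At 48 h it was -2.16, -9.62 and -3.57 with Lgk974, and 0.213, 0.528, -6.30 and 3.66 with DMSO. The groups overlapped at both times, and the value of 15.2 belongs to DMSO 24 h replicate 3. The mean was -2.95 ± 3.51 with Lgk974 (SD, n = 7) and 2.58 ± 6.24 with DMSO (SD, n = 8), a within-time difference of -5.80 (exact permutation p = 0.0249, adjusted p = 0.329), with 0 of 7 Lgk974 libraries above the DMSO mean. Without DMSO 24 h replicate 3 the difference was -3.77 (exact permutation p = 0.0531), and it missed 0.05 as well without Lgk974 24 h replicate 1 (-5.29), Lgk974 48 h replicate 2 (-4.30) or DMSO 48 h replicate 1 (-5.66). With peaks that covered at least 50% of a region it was -4.16 (exact permutation p = 0.116), and with equally long lists it turned to 3.09 (exact permutation p = 0.259).

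The median difference over the 10 windows was -0.10 percentage points, against -0.06 over all genes, and 5 of 10 were above 0. The other 9 windows had unadjusted exact p-values between 0.158 and 0.958. HBEGF, with a mean excess of 0.01 ± 5.75 with Lgk974 and -0.01 ± 6.27 with DMSO (SD, n = 7 and 8), gave a difference of 13.6 with equally long lists (exact permutation p = 0.00122) and of -5.18 without the 3 libraries that stood apart (exact permutation p = 0.0933). At TGFA the difference was -3.16 at 24 h and 9.96 at 48 h, and the change between times had an unadjusted exact permutation p of 0.0237, against 4.26% of all windows with a p under 0.05. Labels were permuted within each time, so this p refers to no treatment effect at either time, not to equal effects at both. With equally long lists the TGFA change between times, 13.12 in the full lists, turned to -8.04 (exact permutation p = 0.344), and without Lgk974 48 h replicate 2 it was 11.6 (exact permutation p = 0.061). The BTC difference of -7.20 (exact permutation p = 0.193) reached -9.36 without DMSO 48 h replicate 4 (exact permutation p = 0.04) and -14.6 with peaks that covered at least 50% of a region (exact permutation p = 0.0122), but was 1.97 within 100 kb (exact permutation p = 0.695). The EREG difference of -6.17 (exact permutation p = 0.158) reached -8.87 without DMSO 24 h replicate 3 (exact permutation p = 0.0376).

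**Figure D5:**
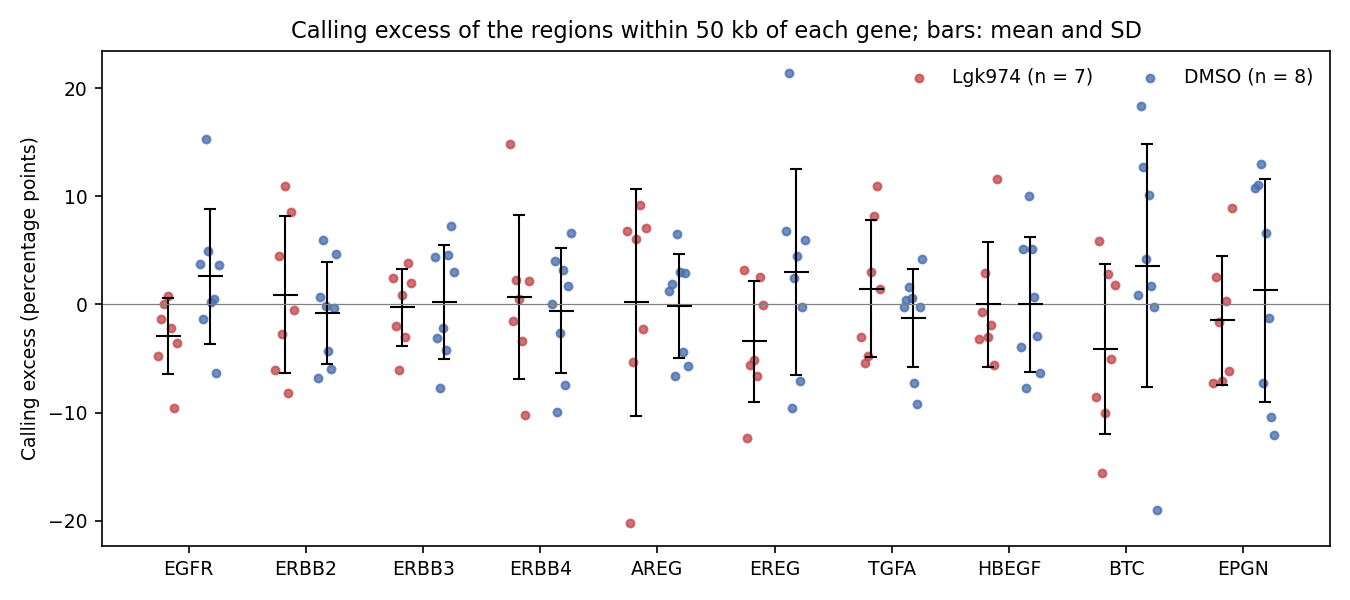
Calling excess of the regions within 50 kb of each gene in percentage points (vertical axis), with 1 point per library, Lgk974 left of DMSO, and bars for the mean and SD (n = 7 and 8). EGFR has a mean of -2.95 with Lgk974 and 2.58 with DMSO, and the groups overlap for every gene.

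The starts of 55 further pathway genes, which include ligands and shedding proteases as well as relay kinases and response genes, were mostly constitutive. In all 89.1% of them were called in all 15 libraries, against 55.8% of all 19970 coding genes counted with the same 1 kb on either side. All 19 adaptors and relay kinases, 9 of 9 relay inhibitors, 10 of 10 response genes and 4 of 4 shedding genes were called in all 15 libraries, and 7 of 8 receptor inhibitors were, with CBL, a ubiquitin ligase that targets EGFR, missing from 1 Lgk974 library. The other 5 ligands were different: EGF itself was called in 0 of 15, NRG3 and NRG4 in 2 each, NRG1 in 5 and NRG2 in 14. NRG1, a neuregulin and ligand of ERBB3 and ERBB4, was the only start that could be tested, with 2 of 7 Lgk974 and 3 of 8 DMSO libraries (exact permutation p = 0.927).

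By calling excess, 3 of the 55 pathway windows were higher with Lgk974, against 6.77% of all windows, and 1 was lower, against 5.21%, at an unadjusted exact p under 0.05. In all 7.27% had such a p, and 0 passed adjustment. The median window difference was 2.11 percentage points over these 55 genes, 34 of them above 0, and -0.06 over all genes, 49.4% of them above 0. IER3, an immediate early response gene, averaged 6.71 ± 10.3 with Lgk974 and -5.87 ± 5.19 with DMSO (SD, n = 7 and 8, exact permutation p = 0.00286, adjusted p = 0.185). ERRFI1, a feedback inhibitor of EGFR, averaged 3.55 ± 4.28 with Lgk974 and -3.10 ± 5.66 with DMSO (exact permutation p = 0.0192). ADAM10, a metalloprotease that sheds ligands, averaged 6.19 ± 8.54 with Lgk974 and -5.41 ± 8.84 with DMSO (exact permutation p = 0.0253). ETV4, an ETS factor induced by MAP kinase signalling, averaged -4.0 ± 5.60 with Lgk974 and 3.50 ± 2.79 with DMSO (exact permutation p = 0.00694). With equally long lists all 4 missed 0.05, and the ERRFI1 difference turned to -4.10. The ERRFI1 difference was 2.36 at a −log10 q of at least 5 and 1.02 at 50% cover (exact permutation p = 0.493 and 0.748), and the ETV4 difference was -3.79 without the 3 libraries that stood apart (exact permutation p = 0.117). The ADAM10 difference was 4.54 within 10 kb (exact permutation p = 0.46). The ERRFI1 call was also lost with summit windows and without DMSO 24 h replicate 3, the ETV4 call at 50% cover, within 10 kb and without Lgk974 48 h replicate 3, and the ADAM10 call at the higher q, with summit windows and without Lgk974 24 h replicate 1 or 2 or Lgk974 48 h replicate 1.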

How the data were processed

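The measurement was ATAC-seq, with a separate deposited peak list for each of 15 libraries and no pooling. The submitters' processing notes name MACS2, Bowtie2, Trimmomatic, SAMtools, Picard, HOMER, bedtools, DiffBind, DESeq2 and ChIPseeker, with hg38. Their order, settings and any shift for the transposase are not stated in the labels or files. Each peak carries a score, a fold (a ratio over background) and −log10 p and −log10 q values deposited by the authors, and these served to rank, filter and describe peaks inside 1 list only. Read depth is unknown, so an uncalled region may be open below that library's threshold.

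Of 1413185 peaks, 1138 outside chromosomes 1 to 22 and X were not used, and 1 line with a damaged name was assigned to chromosome 1. Peaks were joined at 1 bp of overlap. Gene positions and promoter sequences came from RefSeq on GRCh38.p14, the hg38 assembly. Symbols of all 10 genes matched the gene table, and 9 of them matched the promoter table. Gene starts were windows of 1 kb on either side of a listed start, or of either gene end where none was listed.

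Regions or starts called in 3 to 12 libraries, and windows with at least 5 regions, were tested by two-sided exact permutation of labels within time (2450 assignments for both times, 70 at 24 h, 35 at 48 h), with Benjamini-Hochberg adjustment over all features tested and a threshold of 0.05. The tests were checked on simulated data with independent regions and windows of regions drawn at random. That check does not cover effects shared by the neighbouring regions of a real window. Regions were named by rule where they covered a start or had an unadjusted p under 0.05 over both times, and pathway genes where a start or window had such a p. Other constitutive regions, the ERBB4 regions and those from equally long lists were named after their values were seen. Members and gene lists were chosen with earlier results of these data known. No label states that replicates were separate cultures, so p-values cover only the spread between these libraries, which may be technical. Every library is labelled HPAF-II, although the growth protocol mentions a second line, KATO III. Alternatives varied list length, peak strength, the cover of a region by its peaks, summit windows, window size and the libraries used. Python 3.11.15, numpy 2.4.6, pandas 2.3.3 and matplotlib 3.10.9 were used. Sequence of regions outside promoters, exon and intron classes and transcript levels were not analysed here.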

Additional observations from a re-analysis of the deposited data

Results flagged for a closer look

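Single libraries lay far from the others of their group for 3 genes, by the size of the gap to the nearest library relative to the range of the group. Lgk974 24 h replicate 3, whose list was the shortest, had 11 regions called near ERBB3, against 17 to 18 in the other Lgk974 24 h libraries, and 11 near HBEGF, against 19 to 20. DMSO 24 h replicate 4 had 3 regions called near EPGN, against 6 in each of the other DMSO 24 h libraries. Chance marks about 5% of the groups looked at in this way, of which there were 30.

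For TGFA the treatment difference in calling excess was -3.16 percentage points at 24 h and 9.96 at 48 h, and the difference between times of 13.12 had an unadjusted exact permutation p of 0.0237, against 4.26% of all windows with a p under 0.05, and it did not pass adjustment (adjusted p = 0.9998). With equally long lists the difference between times turned to -8.04 (exact permutation p = 0.344). The region at chr5:140298103-140298695 near HBEGF had a peak in 3 of 4 Lgk974 and 3 of 4 DMSO libraries at 24 h, and in 0 of 3 Lgk974 and 4 of 4 DMSO libraries at 48 h, a difference between times of -1.0 in the share of libraries called (unadjusted exact permutation p = 0.0469). This region had the same p in the test over both times. For TGFA and HBEGF alike, labels were permuted within each time, so the p-values refer to no treatment effect at either time. They do not test whether the effect differed between the times.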

How the results depend on the processing

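Counts near the family are small and moved with most settings, and 0 regions or windows passed adjustment under any setting for which it was computed. Over both times, 2 regions were higher and 3 lower with Lgk974. The higher count was 4 with equal numbers of peaks, 0 at a −log10 q of at least 5, 4 within 100 kb and 4 with equal numbers and without the 3 libraries that stand apart (chosen after seeing the data). The lower count was 1 at a −log10 q of at least 5, 5 with fixed windows around summits and 0 within 10 kb. Leaving out 1 library gave 0 to 2 higher and 1 to 3 lower. With the replicate number as a block, 0 were higher and 1 lower, and the TGFA region at 121.6 kb was the one lower; the block took the p of the other 4 regions to 0.0625 (TGFA at 22 kb, AREG and HBEGF at 33.3 kb) and 0.125. Same-numbered libraries correlated at 0.0584, 0.0935, -0.0538 and 0.0975 at 24 h and 0.136, -0.043 and 0.0388 at 48 h, so the numbers are not shown to pair them.

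At 24 h, 0 regions separated the treatments fully. Those in DMSO only became 1 with summit windows, 1 without the 3 libraries and 2 with equal numbers as well, where those in Lgk974 only became 2; leaving out 1 library gave 0 to 1 and 0. At 48 h, the count of 1 for Lgk974 only became 0 with equal numbers, 0 at the higher q, 2 at 50% cover, 5 without the 3 libraries and 4 with equal numbers as well (1 to 5 leaving out 1 library). The count of 2 for DMSO only became 1 at the higher q, 1 at 50% cover and 0 within 10 kb (2 to 3 leaving out 1 library).

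The 1 family window past 0.05 became 0 at the higher q, within 10 kb, within 100 kb and without the 3 libraries (0 to 2 leaving out 1 library). It stayed 1 at 50% cover, where it was BTC and not EGFR. With equal numbers of peaks it was also 1, but that was HBEGF, of 8 windows tested. The EGFR window difference reversed to 3.09 with equal numbers and 4.77 without the 3 libraries as well, and the TGFA difference between times to -8.04 and -12.5. Pathway windows higher numbered 1 with summit windows, 8 within 100 kb and 7 without the 3 libraries (2 to 5 leaving out 1 library). Those lower numbered 0 with equal numbers, at 50% cover, within 10 kb and without the 3 libraries (0 to 3). ERRFI1 reversed to -4.10 with equal numbers, -0.96 within 100 kb and -4.87 with equal numbers and without the 3 libraries, where ETV4 reversed to 0.38. Gene starts past 0.05 stayed at 0 on leaving out any library. With all libraries, only 1 family start and 1 pathway start could be tested, so this count had little room to move. The causes were not tested.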
